A study of Rattus norvegicus with 8 samples.

Results

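The CCAAT/enhancer-binding proteins (C/EBPs) measured here were *Cebpa*, *Cebpb*, *Cebpd* and *Cebpg*, 4 genes of the 14217 that the arrays could name. They were taken by gene symbol, but with earlier results of these data known, so their counts below are not those of a blind choice. All probe sets annotated to exactly 1 of these symbols were taken, which gave 11 of 31042 probe sets. *Cebpa* had 5, *Cebpd* 3, *Cebpg* 2 and *Cebpb* 1, and 0 probe sets named a member together with another gene. Probe sets of the same gene share their target, so the 11 are not 11 separate genes.

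The study asked whether plasma of adult rats that met intermittent hypoxia (IH) as neonates changes transcription in healthy reporter cells. The reporter cells were peripheral blood mononuclear cells (PBMC), the lymphocytes and monocytes of blood, from 2 healthy male Brown Norway rats of about 180 days, BN1 and BN2. For 6 h, 500000 of these cells were held in medium with 20% plasma, and each of the 8 cultures had its own Affymetrix rat expression array. The plasmas were a pool of 5 male Sprague-Dawley rats exposed to 5% O2 IH (5% IH), a pool of 3 exposed to 10% O2 IH (10% IH), a pool of 8 kept in 21% O2 (normoxic control), and the reporter donors' own plasma (autologous). IH was given daily over postnatal days 2 to 6, and plasma was drawn after an overnight fast at age PD114 (days after birth). Every pool was made once, so the spread given here is that between cells of 2 donors and not between plasma donors. Autologous plasma differed from the other 3 in strain, in age and in being the cells' own, and these cannot be told apart. The labels of the autologous arrays also disagree among themselves: a field of each names plasma of the other donor, so which Brown Norway plasma met which cells is not certain.

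C/EBPs are basic leucine zipper factors that bind DNA as dimers with each other or with relatives such as the ATF factors. C/EBPα (*Cebpa*) drives precursors into the myeloid lineage. C/EBPβ (*Cebpb*) and C/EBPδ (*Cebpd*) are induced by inflammatory signals in monocytes and macrophages and in the acute-phase response of liver. C/EBPγ (*Cebpg*) is found in most cells, lacks an activation domain of its own, and dimerizes with the other members and with ATF4.

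The promoters of *Cebpb*, *Cebpa* and *Cebpg* are printed because *Cebpb* differed most between plasmas and *Cebpg* did not pass the test in any comparison. *Cebpa* and *Cebpg* are neighbouring genes. Each is the 250 bases before the RefSeq start (GRCr8), read along the gene. Of the 4 members, 3 matched the promoter table, and *Cebpd* did not. Capitals mark the cAMP response element core TGACG on either strand in *Cebpb*, the TATA box TATAAA in *Cebpa*, and the CCAAT box on the reverse strand (ATTGG) in *Cebpg*. The *Cebpb* window is chr3:176816755-176817004 on the + strand, the *Cebpa* window chr1:96896334-96896583 on the + strand and the *Cebpg* window chr1:96829737-96829986 on the - strand.
Cebpb: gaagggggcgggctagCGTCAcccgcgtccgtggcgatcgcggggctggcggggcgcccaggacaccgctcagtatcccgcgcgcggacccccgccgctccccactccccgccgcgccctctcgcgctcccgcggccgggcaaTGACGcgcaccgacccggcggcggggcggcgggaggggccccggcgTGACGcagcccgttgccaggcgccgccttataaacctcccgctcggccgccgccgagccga
Cebpa: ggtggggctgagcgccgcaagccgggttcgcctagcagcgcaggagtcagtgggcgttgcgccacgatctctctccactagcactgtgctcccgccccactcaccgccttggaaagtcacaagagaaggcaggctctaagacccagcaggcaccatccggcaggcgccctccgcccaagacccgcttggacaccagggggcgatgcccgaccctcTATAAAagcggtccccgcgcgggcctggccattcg
Cebpg: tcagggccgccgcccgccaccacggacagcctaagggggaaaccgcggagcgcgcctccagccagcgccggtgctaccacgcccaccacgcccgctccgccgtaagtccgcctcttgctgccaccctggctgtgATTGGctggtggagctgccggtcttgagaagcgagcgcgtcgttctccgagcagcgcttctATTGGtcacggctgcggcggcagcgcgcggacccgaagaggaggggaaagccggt

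*Cebpb* held TGACG 3 times, 234 bases before the start on the reverse strand and 107 and 61 bases before it on the gene's strand. It also held a TATA box 33 bases before the start, and the C/EBP core GCAAT 111 bases before it, which overlaps the TGACG at 107. *Cebpa* held a TATA box 35 bases before its start. *Cebpg* held no TATA box but 2 CCAAT boxes, 116 and 55 bases before its start. Of 33469 rat promoters of this length, 18.2% held TGACG, 23.2% GCAAT and 34% CCAAT on either strand, and 8.06% TATAAA on the gene's strand. The full element TGACGTCA (1.59% of promoters) and the STAT motif TTCNNNGAA (7.67%), each searched on both strands, were in none of the 3. These are matches of letters only.

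Levels are log2 signals after Robust Multichip Analysis (RMA), and each is comparable between arrays for a given probe set but not between probe sets. *Cebpb*, by probe set 1387087_at, was brighter than 90.5% of all probe sets on the mean of the 8 arrays. Its level was 9.37 and 9.59 with 5% IH plasma, 9.59 and 9.46 with 10% IH plasma, 9.07 and 9.32 with normoxic control plasma, and 7.85 and 8.23 with autologous plasma (BN1 and BN2 cells in that order, here and below). Both IH plasmas thus lay above normoxic control, and the 3 Sprague-Dawley plasmas lay well above autologous plasma. The means were 9.48 ± 0.152 with 5% IH, 9.52 ± 0.0927 with 10% IH, 9.19 ± 0.181 with normoxic control and 8.04 ± 0.271 with autologous plasma (SD, n = 2 cultures each).

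*Cebpa* was measured best by 1383243_at and 1384127_at, which were brighter than 44.9% and 39.1% of probe sets. On 1384127_at the level was 5.13 and 5.36 with 5% IH, 4.96 and 5.03 with 10% IH, 4.89 and 4.69 with normoxic control, and 4.06 and 4.36 with autologous plasma. The 4 plasmas did not overlap on this probe set, and stood in the order 5% IH, 10% IH, normoxic control, autologous. On 1383243_at the level was 5.28 and 5.38 with 5% IH, 5.24 and 5.48 with 10% IH, 5.03 and 5.19 with normoxic control, and 4.84 and 5.10 with autologous plasma. Here the 2 IH plasmas overlapped each other, and normoxic control overlapped autologous. The other 3 *Cebpa* probe sets (1384126_a_at, 1369658_at and 1383242_a_at) were dim, brighter than 10.9%, 9.02% and 8.01% of probe sets, and their group means lay between 2.66 and 3.17.

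*Cebpd* by 1387343_at, brighter than 49.4% of probe sets, had 5.94 and 5.89 with 5% IH, 5.57 and 5.63 with 10% IH, 5.50 and 5.53 with normoxic control, and 5.16 and 4.80 with autologous plasma. Cells of both donors were highest with 5% IH plasma and lowest with autologous plasma. The second *Cebpd* probe set, 1368813_at, had 4.60 and 4.05 with 5% IH, 4.58 and 4.27 with 10% IH, 3.99 and 4.09 with normoxic control, and 3.76 and 3.79 with autologous plasma. Its 5% IH values lay on both sides of normoxic control, with BN1 cells high and BN2 cells low. The last, 1389828_at, was dim (brighter than 15.1% of probe sets) and ran between 3.21 and 3.43 over the 8 arrays.

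*Cebpg* by 1372885_at, brighter than 94.0% of probe sets, had 9.64 and 9.64 with 5% IH, 9.48 and 9.57 with 10% IH, 9.59 and 9.56 with normoxic control, and 9.41 and 9.52 with autologous plasma. The 4 means lay between 9.47 and 9.64, the narrowest range among the brightest probe sets of the 4 genes. Its second probe set, 1371038_at, had 6.04 and 6.00 with 5% IH, 6.08 and 5.91 with 10% IH, 5.97 and 5.98 with normoxic control, and 5.49 and 6.26 with autologous plasma. The 2 autologous arrays of this probe set stood farthest apart, the BN1 array below and the BN2 array above all 6 others.

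**Figure D1:**
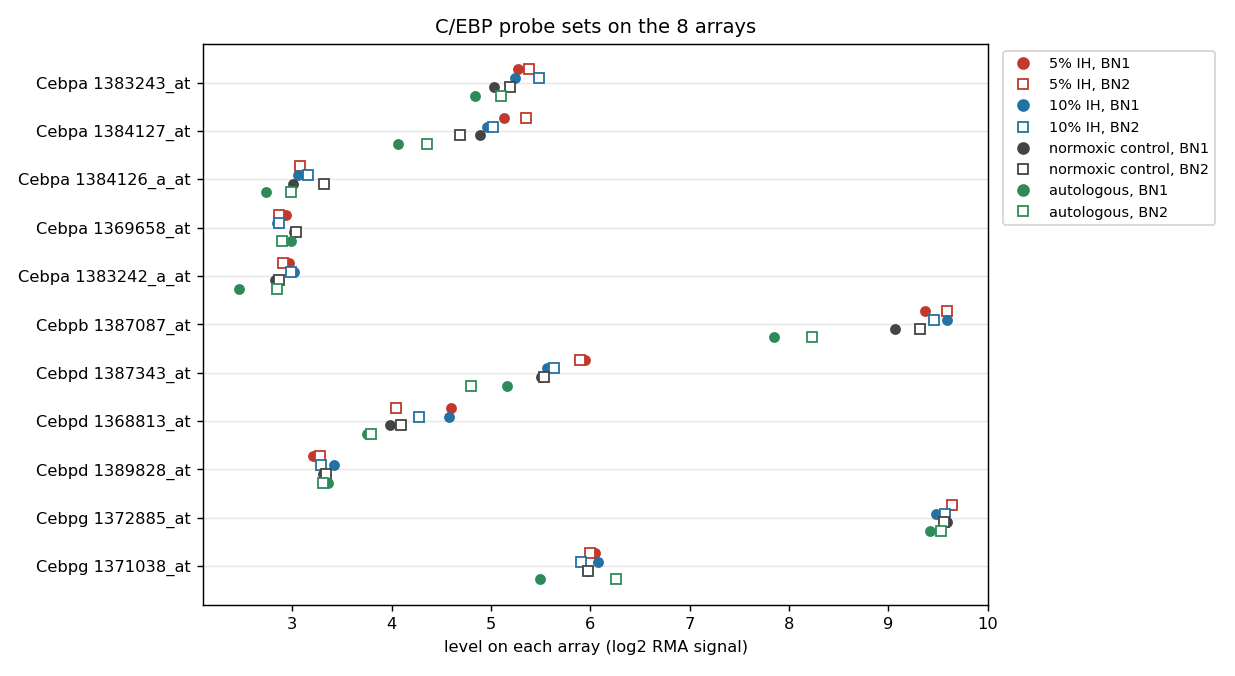
Level of the 11 C/EBP probe sets on each of the 8 arrays (x axis, log2 RMA signal), coloured by plasma; filled circles are BN1 cells and open squares BN2 cells. *Cebpb* ran at 7.85 and 8.23 with autologous plasma and at 9.07 or more with the other plasmas, while *Cebpg* 1372885_at stayed between 9.41 and 9.64.

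The first comparison was that of 5% IH with normoxic control plasma. *Cebpa*, *Cebpb* and *Cebpd* each had a probe set that was higher with 5% IH plasma, by 1.22- to 1.37-fold, and *Cebpg* had none. A probe set met the criterion when its Rank Product had a 1-sided permutation p under 0.05 and its log2 ratio passed 0.263 (1.2-fold) in either direction, with no adjustment for the number of probe sets. By it 4 of the 11 C/EBP probe sets were higher and 0 lower, against 1.58% of all 31042 probe sets higher and 1.52% lower. The median log2 ratio of the 11 was 0.09, and that of all probe sets was -0.00. limma over all 8 arrays, after the Benjamini-Hochberg correction, called 0 probe sets on the whole array (adjusted p = 1 for each C/EBP probe set). By its unadjusted p under 0.05 it called 2 of the 11, against 2.54% of all.

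*Cebpa* 1384127_at rose most with 5% IH plasma, by a log2 ratio of 0.45 ± 0.13 (limma standard error; 1.37-fold, 95% confidence interval 0.16 to 0.75, Rank Product permutation p = 0.000558). The ratio was 0.24 in BN1 and 0.67 in BN2 cells. *Cebpd* 1387343_at rose by 0.40 ± 0.12 (1.32-fold, interval 0.13 to 0.68, permutation p = 0.00148), by 0.44 and 0.36 in the 2 donors. Both calls held when any of the 4 arrays was left out, with ratios of 0.34 to 0.57 for *Cebpa* 1384127_at and 0.38 to 0.43 for *Cebpd* 1387343_at. They held for these probe sets and not for the genes as a whole: averaged over all its probe sets, *Cebpd* was at 0.20 and *Cebpa* at 0.11, both under the fold threshold. These means include the dim probe sets of both genes.

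*Cebpb* rose by 0.29 ± 0.15 with 5% IH plasma (1.22-fold, interval -0.05 to 0.63, permutation p = 0.0114), and its values did not overlap those of normoxic control. The call rested on single arrays: the ratio fell to 0.16 without the BN1 control array and to 0.18 without the BN2 array of 5% IH, both under the fold threshold. *Cebpd* 1368813_at met the criterion at 0.28 ± 0.17 (permutation p = 0.00803), but by BN1 cells, with ratios of 0.61 in BN1 and -0.04 in BN2, and was 0.01 without the BN1 array of 5% IH and 0.23 without the BN1 control array. With donor as a replicate block in limma, *Cebpb* (unadjusted p = 0.0588) and *Cebpd* 1368813_at (unadjusted p = 0.117) did not pass. By that unadjusted p alone 3 of the 11 passed, where 2.81% of all probe sets did, and 2 of the 3 also passed the fold threshold.

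Of the 7 probe sets that did not meet the criterion, *Cebpa* 1383243_at was nearest, at 0.22 ± 0.13 (permutation p = 0.034), under the fold threshold. The third *Cebpd* probe set, the dim 1389828_at, was at -0.08 ± 0.09 (interval -0.29 to 0.12), within its error of 0. The 2 brighter *Cebpd* probe sets had positive mean ratios, though 1368813_at only by BN1 cells. *Cebpg* differed by 0.06 (interval -0.14 to 0.26) on 1372885_at and by 0.05 (interval -0.42 to 0.51) on 1371038_at. Counted by overlap alone, 7 of the 11 had both 5% IH arrays above both control arrays and 2 had both below, where 13.3% and 13.0% of all probe sets did.

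The comparison of 10% IH with normoxic control had fewer calls. *Cebpb* and *Cebpd* 1368813_at were higher with 10% IH plasma, and no *Cebpa* or *Cebpg* probe set met the criterion. This was 2 of 11 higher and 0 lower, beside 3.58% of all probe sets higher and 3.37% lower, with a median log2 ratio of 0.09 over the 11. limma called 0 of the 11 by its unadjusted p under 0.05 (5.19% of all probe sets), and 0 of all probe sets after adjustment. Of the 11, 6 lay wholly above and 1 wholly below normoxic control, where 17.0% and 16.9% of all did.

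*Cebpb* rose by 0.33 ± 0.15 with 10% IH plasma (1.26-fold, interval -0.01 to 0.67, permutation p = 0.0151, limma adjusted p = 0.920), by 0.52 in BN1 and 0.14 in BN2 cells. *Cebpd* 1368813_at rose by 0.39 ± 0.17 (1.31-fold, permutation p = 0.00821, limma adjusted p = 0.920), by 0.60 and 0.18. In both the BN1 cells showed the larger ratio. *Cebpb* was no longer called without the BN1 control array (0.20) or the BN1 array of 10% IH (0.26), nor was *Cebpd* 1368813_at without that array of 10% IH (0.24). With donor as a replicate block, *Cebpb* and *Cebpd* 1368813_at had an unadjusted p = 0.0359 and 0.0432 by limma. By that p alone 3 of the 11 were under 0.05, where 5.45% of all probe sets were.

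*Cebpa* 1383243_at was at 0.25 ± 0.13 with 10% IH plasma and so just under the fold threshold, and 1384127_at was at 0.20 ± 0.13. The brightest *Cebpd* probe set, 1387343_at, was at 0.09 (interval -0.19 to 0.36), well under its ratio with 5% IH plasma. *Cebpg* was at -0.06 (interval -0.25 to 0.14) on 1372885_at and at 0.02 (interval -0.44 to 0.48) on 1371038_at. Both IH comparisons use the same 2 control arrays, so their ratios are not independent of each other.

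**Figure D2:**
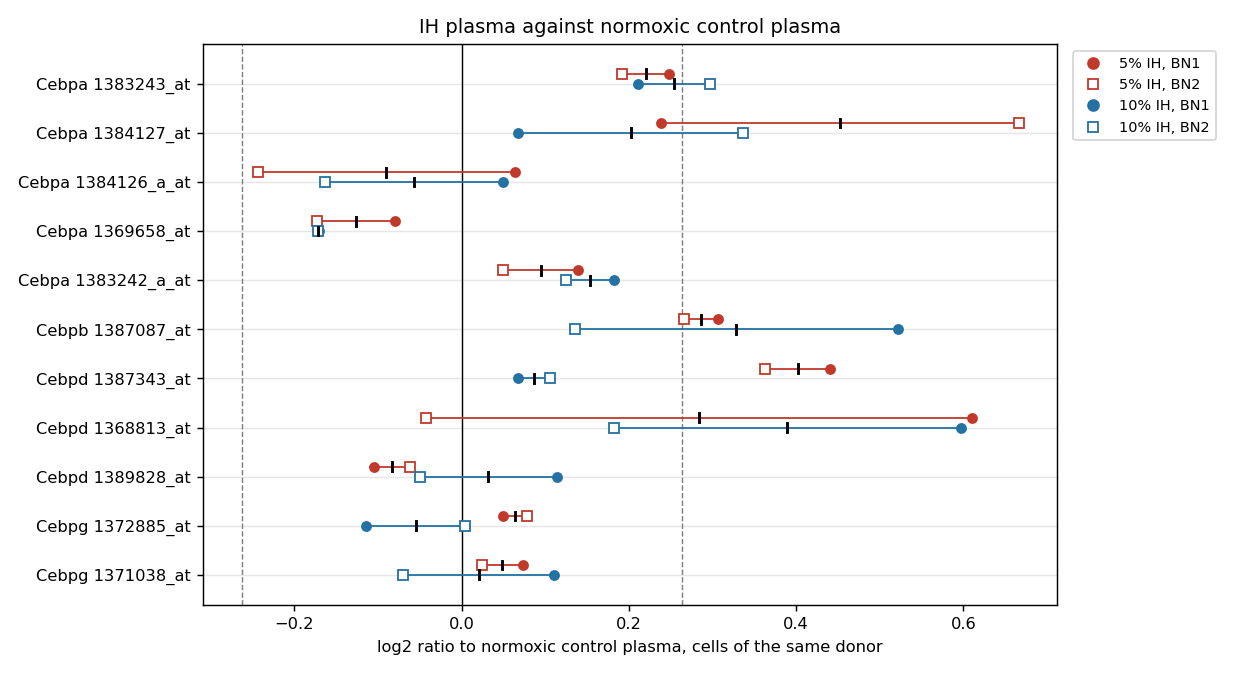
Log2 ratio of each C/EBP probe set to normoxic control plasma in cells of the same donor (x axis), for 5% IH and 10% IH plasma. Filled circles are BN1, open squares BN2, black ticks the mean, and dashed lines the fold threshold of 0.263 on either side; *Cebpd* 1387343_at lay at 0.44 and 0.36 with 5% IH, and its mean with 10% IH was 0.09.

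The 2 IH plasmas were then set against each other. *Cebpd* 1387343_at exceeded its 10% IH level in 5% IH cultures by 0.32 ± 0.12 (1.24-fold, interval 0.04 to 0.59, permutation p = 0.0149, limma adjusted p = 0.981), by 0.37 in BN1 and 0.26 in BN2 cells. It was called with any 1 of the 4 arrays left out (0.28 to 0.35). This was the only call, 1 of 11 higher and 0 lower, beside 3.28% and 3.06% of all probe sets. The other *Cebpd* probe sets had negative ratios with intervals that include 0. These were -0.11 (interval -0.50 to 0.29) on 1368813_at and -0.12 (interval -0.32 to 0.09) on the dim 1389828_at. The mean over the 3 was 0.032, so the difference rests on 1 probe set of the gene.

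*Cebpb* did not differ between the IH plasmas beyond its error, at -0.04 (interval -0.38 to 0.30). *Cebpa* 1384127_at was 0.25 higher with 5% IH (interval -0.05 to 0.55), under the fold threshold, and 1383243_at was at -0.03 (interval -0.32 to 0.25). *Cebpg* 1372885_at was at 0.12 (interval -0.08 to 0.32). These intervals leave room for differences of the size seen against normoxic control.

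Against autologous plasma the C/EBP genes differed more. *Cebpb* was 2.71-fold higher with 5% IH, 2.79-fold with 10% IH and 2.22-fold with normoxic control plasma, and *Cebpa* 1384127_at and *Cebpd* 1387343_at were higher with all 3. *Cebpg* was called with none. The criterion was met by 6 of 11 probe sets with 5% IH, 6 with 10% IH and 5 with normoxic control plasma, all higher and 0 lower, beside 5.40%, 5.13% and 5.33% of all probe sets higher and 5.34%, 5.21% and 5.15% lower. limma adjusted p under 0.05 was reached by 3, 2 and 1 of the 11, beside 1.96%, 1.25% and 1.78% of all. The 3 comparisons share the 2 autologous arrays.

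The log2 ratio of *Cebpb* to autologous plasma was 1.44 with 5% IH (limma adjusted p = 0.000973), 1.48 with 10% IH (limma adjusted p = 0.00105) and 1.15 with normoxic control (limma adjusted p = 0.00457), each ± 0.15. That of *Cebpa* 1384127_at was 1.03 (limma adjusted p = 0.00339), 0.78 (limma adjusted p = 0.0224) and 0.58 (limma adjusted p = 0.0789), each ± 0.13. That of *Cebpd* 1387343_at was 0.94 (limma adjusted p = 0.00385), 0.62 (limma adjusted p = 0.0525) and 0.53 (limma adjusted p = 0.0802), each ± 0.12. In all 9 the groups did not overlap, and the criterion was met with any 1 array left out. Of the 11, 8 lay wholly above autologous plasma with 5% IH, 7 with 10% IH and 7 with normoxic control. Of all probe sets, 16.8%, 15.4% and 17.2% did. Wholly below were 1, 1 and 0 of the 11, beside 22.7%, 21.2% and 21.9% of all. *Cebpd* 1368813_at met the criterion with all 3 plasmas as well (0.55, 0.66 and 0.27 ± 0.17), but its call with normoxic control was lost with any 1 of the 4 arrays left out, and that with 5% IH without the BN1 array of 5% IH.

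Probe sets with all 6 Sprague-Dawley plasma arrays above both autologous arrays numbered 5 of 11 (*Cebpb*, *Cebpd* 1387343_at and 1368813_at, *Cebpa* 1384127_at and 1384126_a_at), beside 6.84% of all probe sets. Of these, 4 met the criterion with all 3 plasmas, beside 2.82% of all. *Cebpa* 1383243_at was called with 5% IH (0.36) and 10% IH (0.39) and not with normoxic control (0.14 ± 0.13), and the dim 1383242_a_at likewise (0.29, 0.34 and 0.19). The dim 1384126_a_at was called with normoxic control (0.30) and not with 5% IH (0.21) or 10% IH (0.24). These calls rested on single arrays. With 1 of the 4 arrays left out in turn, 1383243_at met the criterion 2 of 4 times with 5% IH (0.23 to 0.49) and 2 of 4 times with 10% IH (0.26 to 0.52), 1383242_a_at 1 of 4 times with each (0.09 to 0.48 and 0.15 to 0.54), and 1384126_a_at 2 of 4 times with normoxic control (0.15 to 0.46). *Cebpg* 1372885_at was at 0.17, 0.05 and 0.11, and its intervals ran from -0.14 to 0.37 over the 3.

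**Figure D3:**
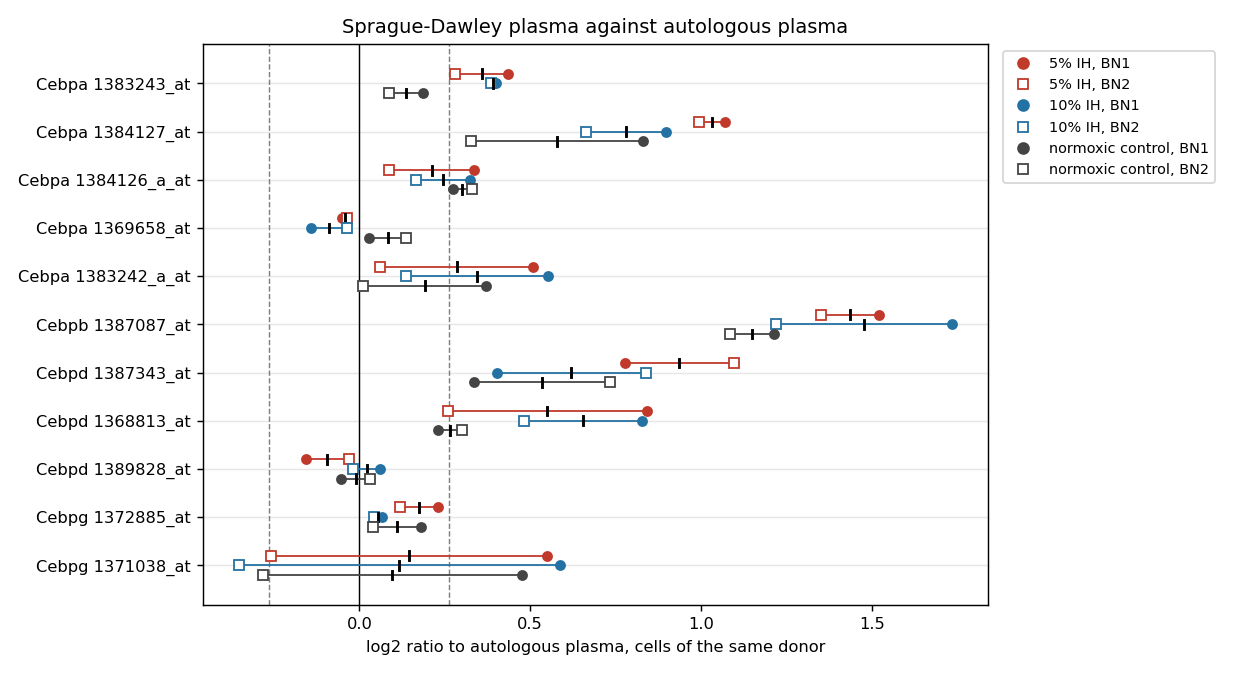
Log2 ratio of each C/EBP probe set to autologous plasma in cells of the same donor (x axis) for 5% IH, 10% IH and normoxic control plasma. Filled circles are BN1, open squares BN2, black ticks the mean, and dashed lines the fold threshold; the mean for *Cebpb* was 1.44, 1.48 and 1.15, and *Cebpg* 1371038_at was positive in BN1 and negative in BN2 cells with each plasma.

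Monocyte markers moved with these differences. The mean log2 level of 14 monocyte markers was 5.98 and 6.08 with 5% IH, 5.96 and 5.94 with 10% IH, 5.89 and 6.02 with normoxic control, and 4.69 and 4.91 with autologous plasma. Of the 14, 8 were higher with normoxic control than with autologous plasma and 0 lower, beside 6.16% of genes higher and 3.97% lower. *Cd14*, the monocyte co-receptor for bacterial lipopolysaccharide, was at 10.2 and 10.4 with 5% IH, 9.93 and 9.94 with 10% IH, 9.78 and 10.0 with normoxic control, and 4.48 and 4.78 with autologous plasma. *Csf1r*, the receptor for macrophage colony-stimulating factor, was at 7.63 and 8.04 with normoxic control against 4.53 and 5.37 with autologous plasma, and *Itgam*, an integrin chain of myeloid cells, at 6.88 and 7.12 against 4.71 and 5.13. RMA values have no 0, so no marker was listed at 0. In these mixed cells fewer monocytes and less RNA per monocyte cannot be told apart, and the part of the markers in the C/EBP differences was not tested.

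The same list moved less between IH and normoxic control plasma. With 5% IH, 3 of 14 monocyte markers were higher (*Adgre1* by 0.54, *Cd14* by 0.40 and *Itgam* by 0.28) and *Ccr2*, a chemokine receptor, was lower (-0.29; lost without the BN1 control array), beside 1.46% of genes higher and 1.03% lower, and the ranges of the list mean overlapped. With 10% IH, 0 of 14 met the Rank Product criterion, beside 2.04% of genes higher and 2.26% lower. By limma 1 of the 14 had an unadjusted p under 0.05 with 10% IH, beside 5.19% of all probe sets. The part of these markers in the rise of *Cebpa*, *Cebpb* and *Cebpd* with 5% IH was not tested.

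Other blood cells were followed by lists of their own. The mean of 14 T cell markers stayed between 9.16 and 9.35 on the 8 arrays, and that of 11 NK cell markers between 6.97 and 7.15. The mean of 7 B cell markers lay at 8.60 and 8.56 with 5% IH, 8.52 and 8.36 with 10% IH, 8.64 and 8.56 with normoxic control and 8.44 and 8.16 with autologous plasma. No marker of granulocytes (11), T cells, B cells, NK cells, platelets (9) or red cells (6) met the Rank Product criterion with 5% IH. In that comparison with normoxic control, 1.46% of genes were higher and 1.03% lower. By limma 0 of these markers had an unadjusted p under 0.05, beside 2.54% of all probe sets. With 10% IH, *Fcer2* (-0.61) and *Blk* (-0.39) of the B cell list were lower, and *Il7r* of the T cell list (0.43) and *Alas2* of the red cell list (0.31) higher, beside 2.04% of genes higher and 2.26% lower. *Alas2* met the criterion in 2 of the 4 settings that leave out 1 array (0.17 to 0.44), and the other 3 in all 4. Against autologous plasma, normoxic control had 4 of 11 granulocyte markers higher and 0 lower, beside 6.16% of genes higher and 3.97% lower. Higher and lower were 0 and 1 of the T cell, 2 and 1 of the B cell and 0 and 2 of the NK cell list. For the platelet list and for the red cell list they were 0 and 1. With 1 array left out, *Csf3r* of the granulocyte list met the criterion in all 4 settings, *Camp* and *Fcnb* in 2 each and *S100a8* in 1 (-0.19 to 0.86). In the other lists only the B cell calls held in all 4.

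**Figure D4:**
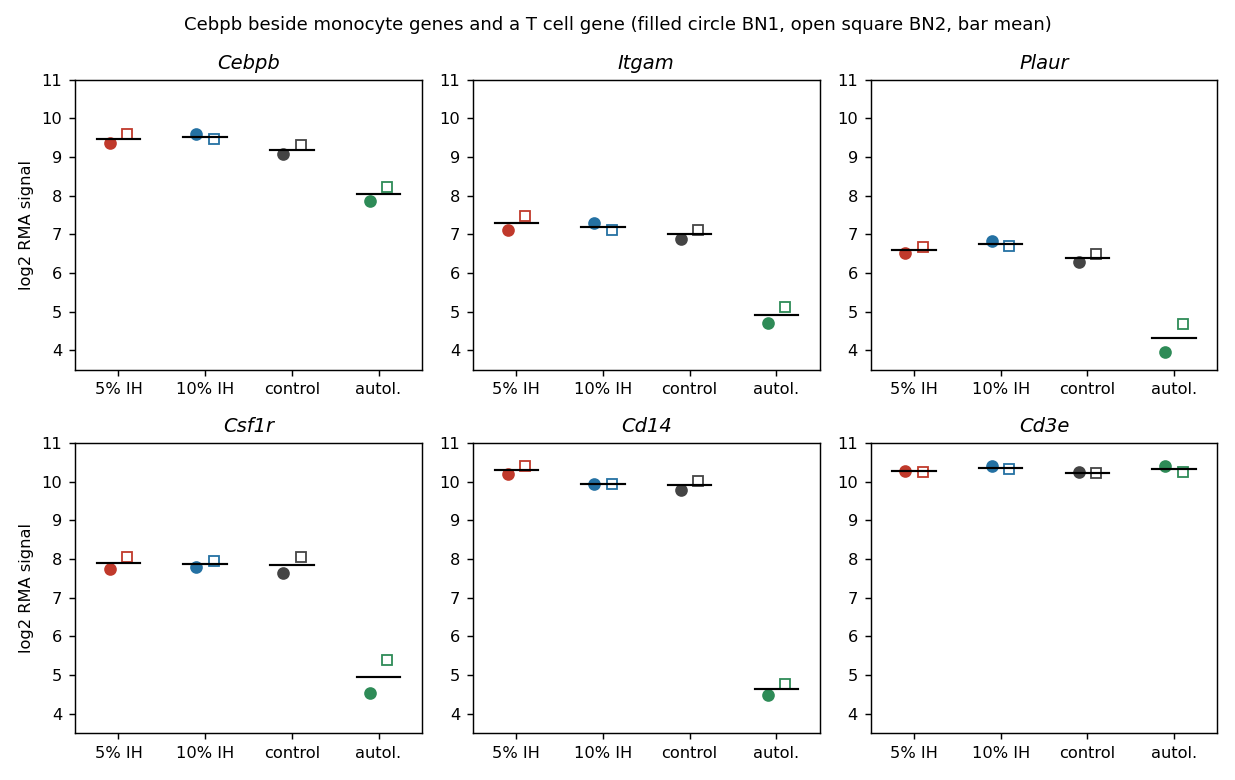
Log2 RMA signal (y axis) of *Cebpb* beside the myeloid genes *Itgam*, *Plaur*, *Csf1r* and *Cd14* and the T cell gene *Cd3e* on the 8 arrays, by plasma; filled circles are BN1, open squares BN2 and bars the group mean. *Cd14* was at 4.48 and 4.78 with autologous plasma, far below its other 6 values, while *Cd3e* stayed between 10.2 and 10.4.

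The genes most like each member over the 8 arrays were sought among the 9967 genes whose brightest probe set lay above the 40th percentile. For *Cebpb* they were *Plaur*, the urokinase receptor (r = 0.993), and the integrin chains *Itgam* (r = 0.990) and *Itgb2* (r = 0.990). For *Cebpd* they were *Fdps*, an enzyme of isoprenoid synthesis (r = 0.982), the chemokine *Ccl3* (r = 0.972) and *Ttyh2* (r = 0.971). For *Cebpa* they were the mitochondrial iron carrier *Slc25a37* (r = 0.957), the kinase *Dapk1* (r = 0.941) and the kinase *Mknk1* (r = 0.940), and for *Cebpg* *Fnip1* (r = 0.968), *Pum3* (r = 0.968) and the phosphatase *Ptpn12* (r = 0.960). Among the members' brightest probe sets, r was 0.83 for *Cebpb* with *Cebpd*, 0.82 for *Cebpa* with *Cebpb*, and 0.62 to 0.67 for the other pairs. These are descriptions over 8 arrays that fall into 4 groups, and the 2 autologous arrays lie low for most of these genes.

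Relatives and partners of the C/EBPs formed the next list. With 5% IH against normoxic control, 0 of 15 relatives and dimer partners met the Rank Product criterion. This was beside 1.46% of genes higher and 1.03% lower. By limma 0 had an unadjusted p under 0.05, beside 2.54% of all probe sets. These counts of 0 are near those shares. *Jun*, a partner in AP-1, was lower with 10% IH (-0.32), beside 2.26% of genes. Its call was lost without the BN1 array of 10% IH (-0.19). Between normoxic control and autologous plasma 4 of the 15 were higher and 2 lower, beside 6.16% and 3.97% of genes. *Fos*, the other AP-1 partner, was at 6.25 and 6.22 with normoxic control and at 4.67 and 5.12 with autologous plasma, a log2 ratio of 1.34 (limma adjusted p = 0.00102). *Atf4*, the stress factor that dimerizes with C/EBPγ, was at 11.2 and 11.3 with 5% IH, 11.5 and 11.4 with 10% IH, 11.2 and 11.3 with normoxic control and 11.3 and 11.3 with autologous plasma.

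Of 20 measured genes of the ATF4 and amino acid response, 0 met the Rank Product criterion with 5% IH against normoxic control. This was beside 1.46% of genes higher and 1.03% lower, and by limma unadjusted 0 passed, beside 2.54% of all probe sets. *Ddit4* (0.46) and *Herpud1* (0.32) were higher with 10% IH, beside 2.04% of genes. *Herpud1* was lost without the BN1 array of 10% IH. Normoxic control had 7 of the 20 higher and 2 lower than autologous plasma, beside 6.16% and 3.97% of genes. The list of regulators of C/EBP protein had 16 measured genes, such as *Trib1* and *Trib2*, adaptors that lead C/EBPα to degradation. Of these 16, 0 met the Rank Product criterion with 5% IH and 0 with 10% IH. Of all genes, 1.46% were higher and 1.03% lower with 5% IH, and 2.04% and 2.26% with 10% IH. By limma unadjusted the counts of the 16 were 0 and 1, beside 2.54% and 5.19% of all probe sets. Of the 16, 2 were higher with normoxic control than with autologous plasma (*Trib3* by 0.39 and *Calr* by 0.44) and 0 lower, beside 6.16% and 3.97% of genes. *Trib3* is also in the list of ATF4 and amino acid response genes, so its call is counted in both lists. *Calr* was lost without the BN2 autologous array. Of 14 measured partner factors of the myeloid lineage, 0 met the Rank Product criterion with 5% IH, beside 1.46% of genes higher and 1.03% lower. By limma unadjusted 0 passed, beside 2.54% of all probe sets. *Id2* (-0.39) and *Myb* (-0.30) were lower with 10% IH, beside 2.26% of genes. *Id2* was lost without the BN2 array of 10% IH (-0.25), and *Myb* without the BN1 array of 10% IH or the BN1 control array (-0.49 to -0.11 over the 4 settings). Normoxic control had 4 of the 14 higher and 1 lower than autologous plasma, beside 6.16% and 3.97% of genes.

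Genes upstream of C/EBP transcription included the cytokine *Il1b*, at 10.1 and 10.2 with 5% IH, 9.63 and 9.28 with 10% IH, 9.06 and 9.23 with normoxic control and 5.21 and 5.47 with autologous plasma. *Il1b* and *Tnf* were the 2 of 19 upstream genes that were higher with 5% IH than with normoxic control, by 0.98 and 0.44, with 0 lower, beside 1.46% and 1.03% of genes. Both, like *Il6* and *Csf3r*, are also in the list of myeloid target genes below. With 10% IH, *Socs3* (0.41), a feedback inhibitor of cytokine signals, the receptor *Il6r* (0.33) and *Il1b* (0.31) were higher and *Il6* was lower (-0.30, with overlapping groups), beside 2.04% and 2.26% of genes. None of these 4 calls held with every array left out in turn: *Il1b* and *Il6* were lost without the BN1 array of 10% IH or the BN1 control array (*Il6* at -0.023 at the nearest to 0), and *Socs3* (0.25) and *Il6r* (0.22) without the BN1 array of 10% IH. Normoxic control had 5 of the 19 higher than autologous plasma and 0 lower, beside 6.16% and 3.97% of genes.

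Known targets of C/EBPs in myeloid cells, among them chemokines and interleukins, had more members higher than lower with both IH plasmas. Of 29 measured target genes, 10 were higher and 1 lower with 5% IH, and 7 higher and 2 lower with 10% IH, beside the 1.46% and 1.03% of genes with 5% IH and 2.04% and 2.26% with 10% IH. The median log2 ratio of the 29 was 0.14 with 5% IH and 0.07 with 10% IH, and that of all genes was -0.00 in both. The list holds genes that the study itself drew attention to in these cultures, so its counts are not independent evidence. It also shares *Cd14*, *Csf1r*, *Lyz2* and *Itgam* with the monocyte list, and *Cd14* and *Itgam* are 2 of its 10 higher genes with 5% IH. The part of monocyte markers in the target counts was not tested. With the upstream list it shares *Il1b*, *Tnf*, *Il6* and *Csf3r*, so calls of these genes are counted in both lists. By limma 0 of the 29 passed after adjustment in either comparison. An unadjusted p under 0.05 by limma was reached by 9 with 5% IH and 4 with 10% IH, beside 2.54% and 5.19% of all probe sets.

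*Cxcl1*, a neutrophil chemokine, was at 6.18 and 6.22 with 5% IH, 5.54 and 5.72 with 10% IH, and 4.94 and 4.83 with normoxic control. Its log2 ratio to normoxic control was 1.32 ± 0.17 with 5% IH and 0.75 ± 0.17 with 10% IH. *Ptgs2*, the inducible cyclooxygenase, was at 5.95 and 5.60 with 5% IH, 4.70 and 4.53 with 10% IH, and 4.69 and 4.52 with normoxic control, so its rise of 1.17 ± 0.18 was with 5% IH and its ratio with 10% IH was 0.01 ± 0.18. The difference between the IH plasmas was 1.16 ± 0.18 for *Ptgs2* and 0.57 ± 0.17 for *Cxcl1*, and both met the criterion.

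*Lcn2*, an iron-withholding protein of neutrophils and macrophages, rose by 0.72 in 5% IH cultures and 0.44 in 10% IH cultures, and *Ccl3* by 0.61 and 0.34. *Il10*, an anti-inflammatory cytokine, was higher with 5% IH by 0.46, and *Il1rn*, the interleukin 1 receptor antagonist, with 10% IH by 0.35. *Plaur* (0.37) was higher with 10% IH, and the complement gene *C3* with both (0.34 with 5% IH and 0.32 with 10% IH). *Pparg*, named after its values were seen, was lower with both (-0.28 with 5% IH and -0.29 with 10% IH), at levels of 2.99 to 3.52. Its call held in 2 of 4 settings with 1 array left out in each comparison. Both calls were lost without the BN1 control array, that with 5% IH also without the BN2 array of 5% IH (-0.08 at the nearest to 0). That with 10% IH was also lost without the BN1 array of 10% IH. With 5% IH, 8 of the 10 higher target genes were called with any 1 of the 4 arrays left out, and *C3* and *Itgam* were not. With 10% IH, *C3*, *Ccl3* and *Plaur* were each lost without the BN1 control array. With 10% IH, the count of 9 went to 4 without the BN1 control array and to 14 without the BN2 control array, and with 5% IH the count of 11 went to 17 without the BN2 control array.

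Between the IH plasmas, 9 of the 29 target genes were higher with 5% IH than with 10% IH and 0 lower, beside 2.62% and 1.85% of genes, and the count went to 5 without the BN2 array of 5% IH. Against autologous plasma, 19 of the 29 were higher with normoxic control and 0 lower, with a median of 0.83 against -0.01 for all genes, and the monocyte markers given above move with this. Acute-phase target genes of liver gave 1 of 13 higher with 5% IH (*Fgg* by 0.46) and 1 with 10% IH (*Itih4* by 0.28), both at levels under 4, beside 1.46% and 2.04% of genes. *Fgg* met the criterion with any 1 array left out, and *Itih4* in 2 of 4 such settings (0.15 to 0.41).

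**Figure D5:**
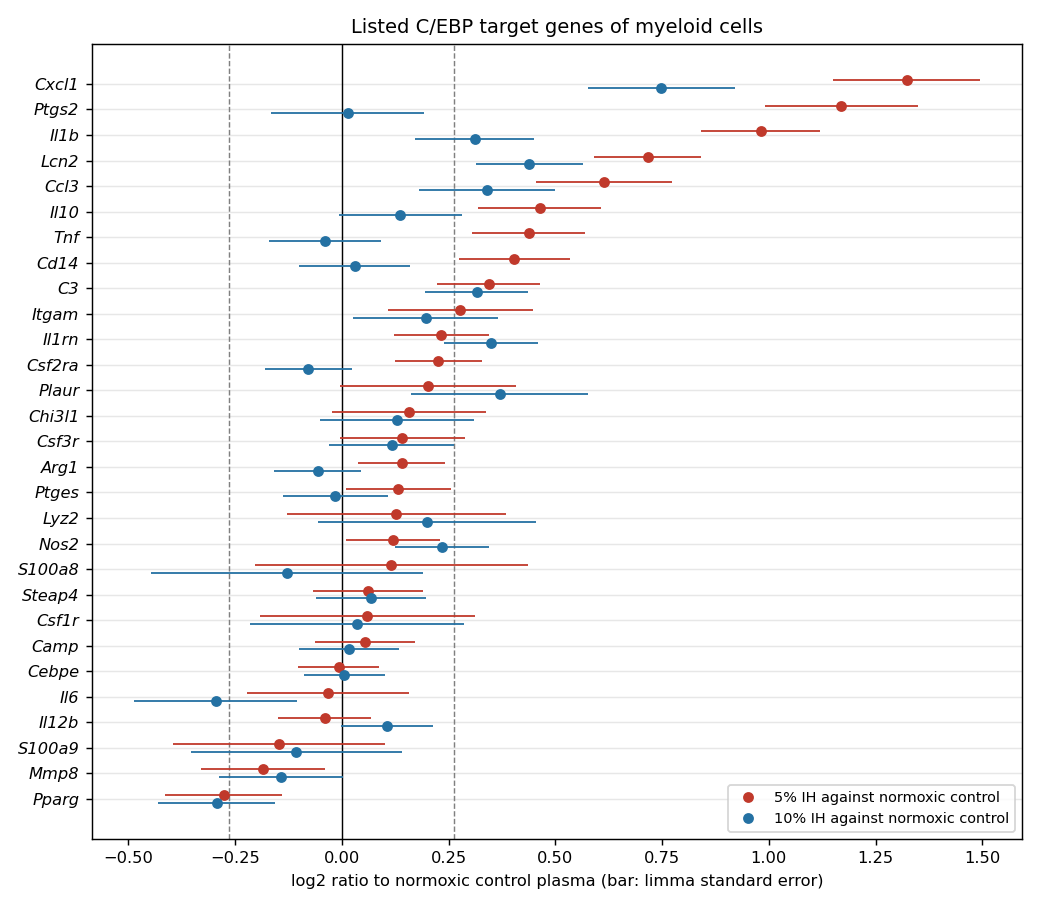
Log2 ratio to normoxic control (x axis) of the 29 measured C/EBP target genes of myeloid cells with 5% IH and 10% IH plasma, ordered by the 5% IH ratio; bars are limma standard errors and dashed lines the fold threshold. *Cxcl1* was highest with both, at 1.32 and 0.75, and *Ptgs2* lay at 1.17 with 5% IH and 0.01 with 10% IH.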

How the data were processed

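RNA of PBMC cultures was measured on 8 Affymetrix rat expression arrays, 2 per plasma. The log2 values were made by the authors with Expression Console and Robust Multichip Analysis (background correction, quantile normalization, probe summary) before they were deposited; Partek is named in the submitters' processing notes without a version. The table held 31042 probe sets from 1.66 to 14.3, and array medians of 5.53 to 5.56, so no further scaling was applied. In the annotation 20826 probe sets had 1 gene symbol, 436 several and 9780 none. A listed gene was represented by its brightest probe set with 1 symbol. The number of arrays limits the precision.

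The Rank Product was written in R 4.3.3, since the package the study used was not at hand: 4 between-array log2 ratios, 100 permutations within arrays, a 1-sided permutation p under 0.05 and a log2 ratio past 0.263. A limma 3.58.1 fit to all 8 arrays, with the 4 plasmas as groups, gave standard errors, 95% intervals and Benjamini-Hochberg adjusted p over all probe sets. An exact 2-sided permutation test of 2 against 2 arrays cannot go below p = 0.333, so none is given. Both procedures were checked on simulated data. The pass condition covered only planted changes larger than the C/EBP differences between IH and normoxic control. Replicate numbers are the reporter animals, so arrays of a number share their cells; deviations from group means correlated within numbers at 0.24 (5% IH and normoxic control), 0.165 (5% and 10% IH), 0.059 (10% IH and normoxic control), -0.0833, -0.171 and -0.00387 (5% IH, 10% IH and normoxic control with autologous).

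The members and the 14 gene lists (214 genes, 183 measured) were chosen with earlier results of these data known. Named were all member probe sets, listed genes that met the criterion for either IH plasma against normoxic control (up to 6 per list by size), and the 3 genes most like each member; genes named for the autologous comparison beyond these, and *Atf4* and *Cd3e*, were picked after their values were seen. Alternatives tried were a 2-sided p, ratios within donor, limma in place of the Rank Product (adjusted or not, with donor as a replicate block, on the compared arrays alone, with trend and robust moderation), dim probe sets left out, quantile normalization again, median centring, the mean over all probe sets of a gene, and each array left out. The same settings for the myeloid target list were added after seeing the data. No protein sequences were used.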

Additional observations from a re-analysis of the deposited data

Results flagged for a closer look

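One probe set of *Cebpd*, 1387343_at, was flagged because its difference between the 2 IH plasmas met the criterion (Rank Product permutation p = 0.0149). That p was part of the flag and is no further support. The effect against normoxic control was 0.316 larger on the log2 scale with 5% IH than with 10% IH plasma. By limma the difference did not pass after adjustment (adjusted p = 0.981). It was the only call, 1 of 11 probe sets, beside 3.28% of all probe sets higher and 3.06% lower. The difference was positive in cells of both donors. The other *Cebpd* probe sets had differences of -0.11 (1368813_at) and -0.12 (1389828_at), and the mean over the 3 was 0.032, so the gene as a whole is not shown to differ.

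*Cebpg* 1371038_at was flagged because its ratios to autologous plasma were all positive in BN1 and all negative in BN2 cells. The mean log2 ratio of the 3 Sprague-Dawley plasmas to autologous plasma was 0.538 in BN1 cells and -0.298 in BN2 cells. The Sprague-Dawley plasma arrays of both donors lay between 5.91 and 6.08, and the autologous arrays at 5.49 (BN1) and 6.26 (BN2). The opposite signs thus rest on the 2 autologous arrays. The difference between donors was not tested, and the 3 ratios of a donor share 1 autologous array. The brighter *Cebpg* probe set, 1372885_at, was positive in both donors with each plasma.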

How the results depend on the processing

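The 4 calls for 5% IH against normoxic control went to 2 with limma unadjusted p, with the replicate block, on the compared arrays alone, with trend and robust moderation and with dim probe sets left out (5 of 11 remain), to 0 with limma adjusted p, and to 2 to 5 with 1 array left out. The 2 calls for 10% IH went to 0 with limma unadjusted or adjusted p, to 1 without dim probe sets and to 1 to 3 with 1 array left out, and stayed 2 with the replicate block. The 1 call of 5% against 10% IH went to 0 with limma adjusted p and to 1 to 3 with 1 array left out. For normoxic control against autologous plasma 5 went to 3 with a 2-sided p, 1 with limma adjusted p, 2 without dim probe sets and 3 to 6 with 1 array left out; 6 for 5% IH went to 3 and 3, and 6 for 10% IH to 2 and 3, with limma adjusted p and without dim probe sets. Median centring, quantile normalization again and ratios within donor moved no member count by over 1.5 times, and the replicate block moved no other. Of 642 single log2 ratios over all arrays, 597 kept direction and side, 44 no longer passed and 1 reversed (*Cebpa* by the mean of its probe sets, 5% against 10% IH, 0.034). Most of these could not reverse, since most settings keep the ratio and change only the test. Only quantile normalization again (66 ratios), median centring (66) and the mean over probe sets (18) could change a ratio. Of 264 with 1 array left out, 206 kept direction and side, 24 no longer passed, 13 newly passed and 21 reversed. The cause was not tested. None of the reversed ratios was called with all arrays. Their ranges were, for *Cebpa* 1384126_a_at, -0.24 to 0.065 (5% IH against normoxic control), -0.21 to 0.098 (10% IH against normoxic control) and -0.081 to 0.015 (5% against 10% IH); for *Cebpa* 1383243_at -0.16 to 0.089, *Cebpb* -0.15 to 0.065 and *Cebpd* 1368813_at -0.38 to 0.17 (5% against 10% IH); for *Cebpd* 1389828_at -0.033 to 0.097 (10% IH against normoxic control), -0.044 to 0.086 (10% IH against autologous) and -0.036 to 0.014 (normoxic control against autologous); for *Cebpg* 1371038_at -0.067 to 0.11 (10% IH against normoxic control), -0.059 to 0.12 (5% against 10% IH), -0.24 to 0.53 (5% IH against autologous), -0.27 to 0.50 (10% IH against autologous) and -0.29 to 0.48 (normoxic control against autologous); for *Cebpg* 1372885_at -0.00038 to 0.11 (10% IH against autologous); and for *Cebpa* 1383242_a_at -0.0041 to 0.39 (normoxic control against autologous). The target gene counts went to 0 of 29 with limma adjusted p in each IH comparison; for 5% IH, 11 went to 7 of the 17 left without dim probe sets, and for 10% IH, 9 went to 4 with limma unadjusted p and 5 with the replicate block or with trend and robust moderation. With 2 arrays a group and no detection calls, a dim probe set that did not pass may still differ.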
